A study of Mus musculus with 16 samples.

Results

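Liver RNA was compared between 4 samples from mice given furan and 3 from mice given corn oil alone, all from livers that had stayed 3 weeks in formalin before they were embedded in paraffin. The samples were chosen by their labels as the 8 arrays of the 3-week formalin groups, out of 16 arrays in the series, and the other 8 arrays carried livers kept 18 h in formalin. All mice were female B6C3F1, a hybrid strain, bought at 5 to 6 weeks of age. The furan mice were gavaged for 21 days with 8 mg/kg furan dissolved in corn oil and the controls with the oil alone. Dissection followed 4 h after dosing ended. RNA came from 2 sections of 10 μm per liver and was heavily degraded, with RNA integrity numbers of 1.3 to 2.4 over the whole series on a scale where intact RNA scores near the top. Each array carried a liver sample in Cy5 and, in Cy3, a reference pooled from all samples, with no dye swap. Every level below is a log2 ratio of the sample to that reference. The control arrays 2.1 and 2.2 share the sample number 2, correlated at r = 0.96 across the tested genes and were averaged, so corn oil has n = 3 (samples 2, 4 and 6) and furan n = 4 (samples 41, 42, 43 and 44). The labels call the mice of a dose group biological replicates but do not say whether 2.1 and 2.2 were 1 animal.

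Furan is a small volatile ring compound that the liver enzyme cytochrome P450 2E1 oxidises to a reactive dialdehyde, which binds glutathione and protein. The liver answers such electrophiles with glutathione S-transferases, antioxidant enzymes and chaperones, and damaged cells can switch on the targets of the transcription factor p53. Repeated furan dosing is known to injure rodent liver and to raise cell turnover. Long formalin fixation cross-links and fragments RNA, and the comparison asks what of the furan response can still be measured after it.

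The arrays carried 55681 probes, and on the 8 arrays between 32.3% and 41.4% of them were well above background in the sample channel. Median spot signal was 2.03 to 2.44 times the local background, and no probe was saturated. The share of probes above background was 38.1% ± 2.39 (SD, n = 4) with furan and 34.3% ± 1.77 (SD, n = 3) with corn oil, a difference of 3.84 percentage points (two-sided exact permutation test, p = 0.057, where the smallest p possible is 0.029). The difference was 0.687 points on slide 1 and 6.77 points on slide 2, each of which held 2 arrays of either group. Whether this shift in detection moved the results below was tested only through a covariate, given beside the counts. Of the 11 hepatocyte markers measured, such as Alb and Ttr, all were well above background on all 8 arrays, and none passed the test between the groups. In bulk tissue fewer cells of a type and less RNA per cell cannot be told apart.

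In the 3-week livers 66 of 16161 tested genes and transcripts were called (limma, Benjamini-Hochberg adjusted p under 0.05), 0.408% of those tested. There were 44 rises (0.272%) and 22 falls (0.136%). The rises were led by alpha-class glutathione S-transferases, p53 targets such as Phlda3, the macrophage protease Mmp12, the fetal plasma protein Afp and the small heat shock protein Hspb1. The falls included Cyp2e1, the enzyme that oxidises furan, along with genes of no established liver role such as the olfactory receptor Olfr482. All 66 had no overlap between the groups and differed by at least 0.70 on the log2 scale, and 32 passed a 2-fold difference (23 higher, 9 lower). Over all tested genes the groups did not overlap in 17.6% (10.2% with furan higher, 7.4% lower), the median log2 difference was -0.0023, and 3114 genes had an unadjusted p under 0.05, of which 1512 (9.36%) were higher and 1602 (9.91%) lower. Of the 44 rises, 11 had passed the brightness filter through the furan group alone, 3 of the 22 falls had passed through the control group alone, and 7 of the 66 were above background on no control array and 2 on no furan array. Such genes had to differ to be tested. For those dark on a whole group the text gives a fold in Cy5 level, which is a bound only where written as at least.

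**Figure D1:**
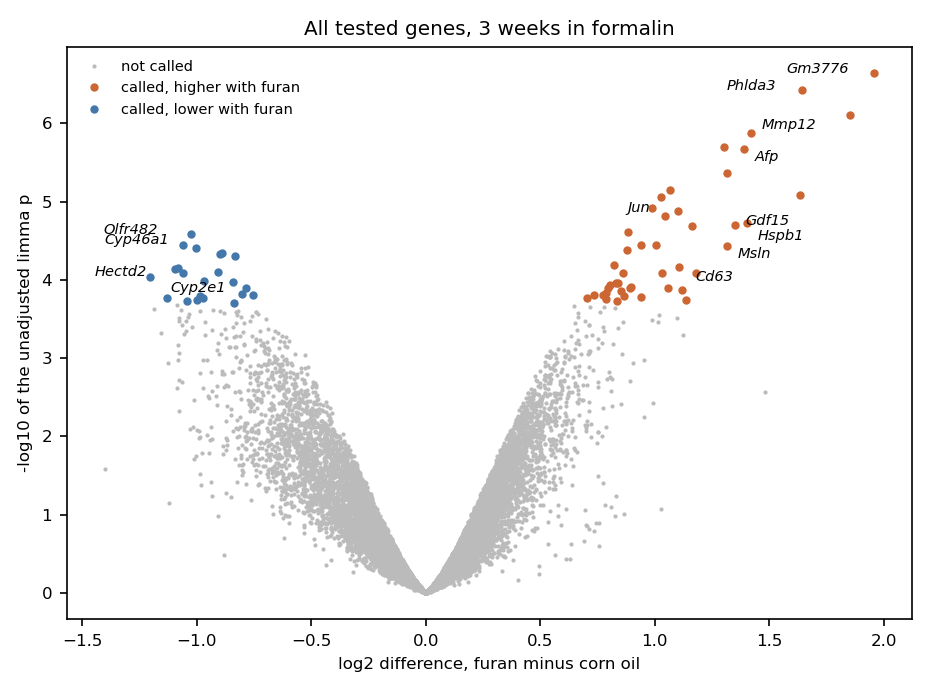
Log2 difference between furan and corn oil (x axis) against the negative log10 of the unadjusted limma p (y axis) for the 16161 tested genes and transcripts after 3 weeks in formalin. The 44 called rises reach 1.96 at Gm3776, and the 9 called falls with a gene symbol lie between -1.20 and -0.75.

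The number of calls turned on single samples. Without control sample 6 limma called 0 genes (2420 at an unadjusted p under 0.05), and without control sample 2 it called 3 genes. Leaving out furan samples 41, 42, 43 or 44 left 17, 8, 7 and 7 calls, all of them rises. Without control sample 4 the count was 1089, with 172 rises and 917 falls. No fall was called in 6 of these 7 fits. On slide 1 alone 0 genes were called (1477 at an unadjusted p under 0.05), and on slide 2 alone 672 (97 rises, 575 falls). With the share of detected probes as a covariate limma called 0 genes (1259 at an unadjusted p under 0.05). The split of calls also moved with the scaling, from 66.7% higher in the main values to 89.8% with each array centred on its median, where the median of all genes shifted to 0.17. It was 46.7% without background subtraction, 56.3% in the authors' deposited value table and 58.4% after scaling between arrays. Gm3776 and Phlda3 were called in 6 of the 7 fits that left out a sample, Mmp12 and Afp in 5, Gm10639 in 3, and every other named gene in 2 or fewer.

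**Figure D2:**
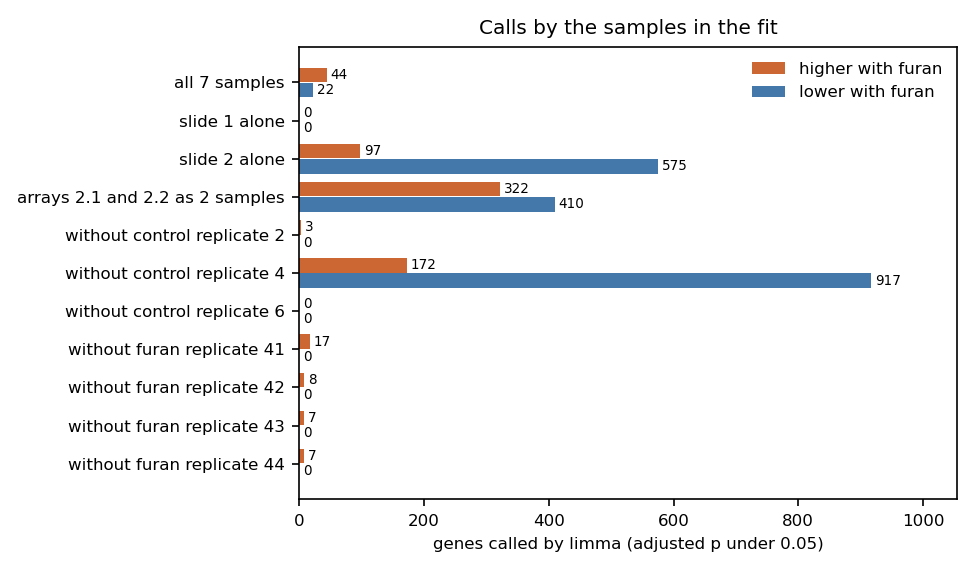
Number of genes called by limma (x axis) as rises (orange) or falls (blue) with all 7 samples, on each slide alone, with arrays 2.1 and 2.2 counted separately and with each sample left out. Falls number 22 with all samples, 917 without control sample 4 and 0 in the 6 other fits with a sample left out.

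Glutathione S-transferases of the alpha class gave 3 of the rises, among them the largest of all, Gm3776. These enzymes join glutathione to electrophiles. Gm3776, a predicted gene of the Gsta family, read -0.88, -0.91, -0.67 and -0.60 on control arrays 2.1, 2.2, 4 and 6 (the order kept below) and 1.29, 0.90, 1.38 and 1.36 in furan samples 41 to 44. Every furan sample was above every control, and furan sample 42 was the lowest of its group. The difference was 1.96 ± 0.14 (SE), a 3.88-fold rise (limma, adjusted p = 0.0030). Its neighbour in the family Gm10639 read -0.69, -0.69, -0.56 and -0.24 with corn oil and 0.82, 0.51, 0.99 and 0.96 with furan. The groups lay apart, again with sample 42 lowest, and the rise was 1.32 ± 0.14 (SE; limma, adjusted p = 0.010). Gsta2, a hepatic alpha-class subunit, read -0.33, -0.68, -0.16 and 0.02 against 0.94, 0.66, 0.91 and 0.76. Its rise was 1.03 ± 0.15 (SE; limma, adjusted p = 0.037), with no overlap. The probe sequences were not compared, so whether the probes read these family members separately was not tested. Probes for both strands of a large intergenic RNA region (mm9 chr9:78107225-78118850) were also called higher, by 1.85 on its brightest F probe and by 1.63 on its brightest R probe. Another F probe gave 0.59, and 4 other R probes gave 1.51, 0.46, 0.31 and 0.13. Of the 19 transferases tested, 3 rose, none fell, and the median difference was 0.18 beside -0.0023 over all genes. Gstm1, a mu-class subunit, came next at 0.78 (limma, adjusted p = 0.051) and Gstp2, of the pi class, at 0.71 (limma, adjusted p = 0.057), neither past the threshold. The second probe of Gstm1 gave 0.27.

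The upstream sequences of the 3 called transferase genes are shown because these genes rose together. Each line gives the 250 bases before the gene start, 5′ to 3′ on the gene's strand, from RefSeq (GRCm38.p6), with the heat shock factor motif TTCNNGAA in capitals.
Gm3776 (chr9:78256879-78257128, plus strand): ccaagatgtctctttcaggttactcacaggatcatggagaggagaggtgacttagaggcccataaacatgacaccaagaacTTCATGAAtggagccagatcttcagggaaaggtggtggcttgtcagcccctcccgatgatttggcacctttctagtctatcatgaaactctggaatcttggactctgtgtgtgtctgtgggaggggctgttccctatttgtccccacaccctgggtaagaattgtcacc
Gm10639 (chr9:78289678-78289927, plus strand): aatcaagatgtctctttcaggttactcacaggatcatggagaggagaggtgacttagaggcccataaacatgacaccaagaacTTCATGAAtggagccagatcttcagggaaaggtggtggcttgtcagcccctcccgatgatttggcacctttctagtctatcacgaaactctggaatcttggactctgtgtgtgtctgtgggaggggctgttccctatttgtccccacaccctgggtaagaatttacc
Gsta2 (chr9:78347146-78347395, minus strand): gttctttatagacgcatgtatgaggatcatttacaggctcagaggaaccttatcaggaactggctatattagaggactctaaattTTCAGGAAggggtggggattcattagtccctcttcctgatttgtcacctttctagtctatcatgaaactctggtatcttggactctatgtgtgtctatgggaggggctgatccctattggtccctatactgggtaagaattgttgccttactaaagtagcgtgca
Gm3776 and Gm10639 were identical at 245 of 248 aligned bases (98.8%), and Gsta2 matched them at 73.6% and 74.1%. The motif stands at positions -169, -167 and -165 from the start. Among 32851 such windows of all genes 7.17% hold TTCNNGAA on either strand. Of 29 called rises with a promoter in the table (34 have a symbol), 7 hold it: these 3 related genes, Cd63, Cdkn1a, Gdf15 and Tuba1c. The called chaperone Hspb1 did not hold it, and Hsp90aa1 had no window. A gene was counted if any of its windows held a motif, while each share of all windows is of single windows. The counts and shares given here are therefore not like measures. The antioxidant response core TGACNNNGC was found in 3 of the 29 (10.2% of all windows), the AP-1 motif TGANTCA in 2 (6.75%), the TATA box TATAAA in 4 (12.4%) and the p53 half-site in 3 (7.13%). The antioxidant core matches were Mical2, Slc22a27 and Tuba1c, none of them a transferase. Of the 7 falls with a promoter, Cyp2e1 held the TATA box, and none held another of these motifs. A match describes letters only and shows no binding.

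Targets of p53 made up 5 of the called rises. Phlda3, a repressor of Akt signalling, read -0.48, -0.35, -0.36 and -0.35 with corn oil and 1.05, 1.36, 1.42 and 1.24 with furan. The control arrays lay close together and far below all furan samples, and the rise was 1.64 ± 0.13 (SE), or 3.12-fold (limma, adjusted p = 0.0030). Gdf15, a secreted stress hormone, read 0.46, 0.41, 0.04 and 0.02 against 1.54, 1.59, 1.20 and 1.74, a rise of 1.35 ± 0.17 (SE; limma, adjusted p = 0.021). Aen, a nuclease that p53 induces, read -0.14, -0.03, -0.15 and -0.18 against 0.67, 0.68, 0.85 and 0.78, and rose by 0.88 ± 0.11 (SE; limma, adjusted p = 0.023). Its second probe gave 0.86. Tnfrsf10b, the mouse receptor for the death ligand TRAIL, read -0.25, 0.12, 0.10 and -0.19 against 0.58, 1.25, 1.25 and 1.26, so that furan sample 41 stood below the other three. The rise was 1.13 ± 0.19 (SE; limma, adjusted p = 0.046), and the probe was above background on 1 of 4 control arrays.

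Cdkn1a encodes p21, the cyclin-dependent kinase inhibitor that p53 uses to halt the cell cycle. It read -1.33, -1.58, -1.23 and -1.41 with corn oil and -0.76, -0.49, -0.56 and -0.51 with furan. The probe was not well above background on any control array, and the ratios differed by 0.78 ± 0.13 (SE; limma, adjusted p = 0.046). The Cy5 levels differed by 1.65-fold, or 0.724 on the log2 scale. The probe's own Cy5 levels were 7.78 with furan and 7.06 with corn oil. The background level thus hardly entered, and the fold is no firm lower bound. Such folds compare normalized Cy5 levels rather than ratios. They set the brighter group's mean against, on each array of the dim group, the higher of the probe's own level and the lowest level well above background, and they are open to dye bias. The gene's other probe gave -0.49 ± 0.30 (SE), so the probes disagreed in sign. Mdm2, the ubiquitin ligase that restrains p53, read -0.73, -0.53, -0.79 and -0.74 against -0.67, -0.46, -0.57 and -0.42. The groups overlapped, and the difference was 0.19 with a 95% interval of -0.08 to 0.46 (limma, adjusted p = 0.43). Of 20 tested p53 targets 5 rose, none fell and the median was 0.18. Of the 20, 5 had entered through the furan group alone. Plk2, a polo-like kinase, stood next at 0.67 (limma, adjusted p = 0.069).

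Upstream windows of Aen and Cdkn1a are printed because they are the called p53 targets in which the p53 half-site was found. Capitals mark that half-site in the RefSeq sequence (GRCm38.p6), 250 bases before the start.
Aen (chr7:78895808-78896057, plus strand): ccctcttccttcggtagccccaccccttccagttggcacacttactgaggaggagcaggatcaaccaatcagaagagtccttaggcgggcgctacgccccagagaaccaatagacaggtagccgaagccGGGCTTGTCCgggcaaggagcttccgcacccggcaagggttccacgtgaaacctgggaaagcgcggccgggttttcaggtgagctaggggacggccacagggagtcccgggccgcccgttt
Cdkn1a (chr17:29090729-29090978, plus strand): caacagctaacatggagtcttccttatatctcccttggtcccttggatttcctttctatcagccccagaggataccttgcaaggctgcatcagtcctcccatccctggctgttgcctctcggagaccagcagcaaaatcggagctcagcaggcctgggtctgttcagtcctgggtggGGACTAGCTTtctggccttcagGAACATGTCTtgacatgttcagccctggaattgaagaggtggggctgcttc
Phlda3 and Gdf15, which rose further, held none in their windows.

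**Figure D3:**
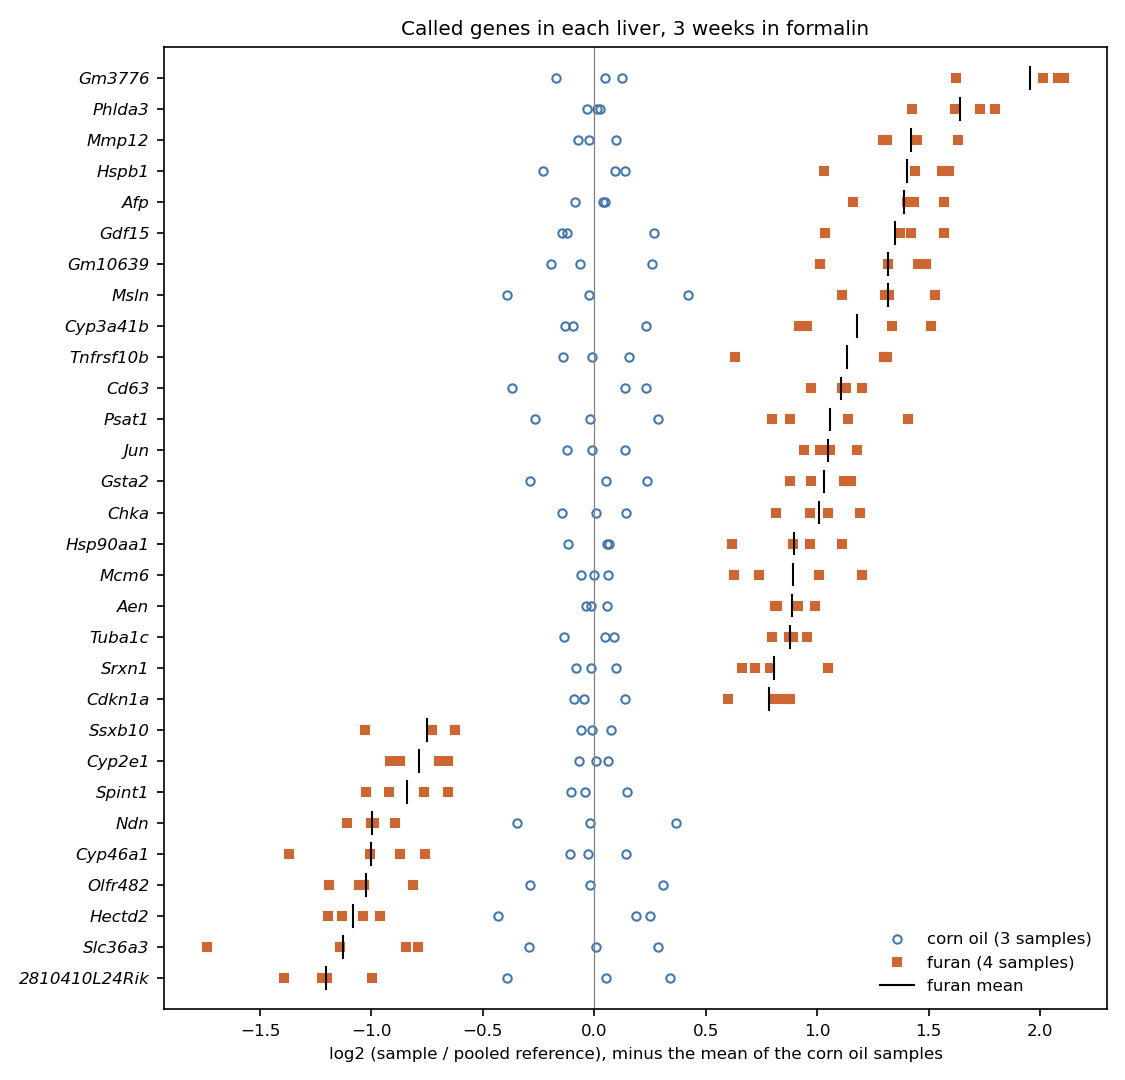
Log2 ratio of each sample to the pooled reference, less the mean of the corn oil samples (x axis), for the 30 called genes that the naming rule took. Open circles are the 3 corn oil samples, squares the 4 furan samples and black bars the furan mean. The groups do not overlap in any of these genes, and furan sample 41 stands apart in Tnfrsf10b.

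Chaperone and oxidative stress genes rose in part. Hspb1, the small heat shock protein HSP27, read 0.17, -0.02, 0.03 and -0.29 with corn oil and 0.97, 1.53, 1.50 and 1.38 with furan, with sample 41 the lowest of a clearly separate group. It rose by 1.40 ± 0.17 (SE), or 2.65-fold (limma, adjusted p = 0.021). Hsp90aa1, the inducible cytosolic Hsp90, read 0.14, 0.15, 0.13 and -0.04 against 0.69, 0.97, 1.05 and 1.19 and rose by 0.90 ± 0.14 (SE; limma, adjusted p = 0.044). Hspa8, the constitutive Hsp70, differed by 0.65 (limma, adjusted p = 0.051), while its other probes gave 0.16 and 0.08. Of 16 heat shock genes tested, 2 rose, none fell and the median was 0.24.

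Srxn1, sulfiredoxin, which repairs over-oxidised peroxiredoxins, was the called member of the NRF2 and glutathione list. It read -0.28, -0.38, -0.22 and -0.39 against 0.74, 0.41, 0.47 and 0.35, a rise of 0.80 ± 0.12 (SE; limma, adjusted p = 0.044). Hmox1, which breaks down heme, read 0.38, 0.74, 0.33 and -0.11 against 2.11, 1.07, 1.18 and 0.65. Furan sample 41 was far above the others, sample 44 lay below control array 2.2, and the difference of 0.99 did not pass (limma, adjusted p = 0.11; 0.07 on its other probe). Nqo1, a quinone reductase, read -0.13, -0.59, -0.42 and 0.25 against 0.46, 0.68, 0.30 and 0.20. The probe was not well above background on any control array, and the ratios differed by 0.58 (limma, adjusted p = 0.16). The Cy5 levels, with the probe's own control level, differed by 1.38-fold, which is no lower bound. Gclc, the catalytic subunit of glutathione synthesis, differed by 0.22 with a 95% interval of -0.05 to 0.50 (limma, adjusted p = 0.35). Osgin1, an oxidative stress growth inhibitor, differed by 1.12 (limma, adjusted p = 0.063). Of 26 members tested 1 rose, none fell, 11 were higher at an unadjusted p under 0.05 and none lower, and the median was 0.21. At that limma threshold 9.36% of all tested genes were higher and 9.91% lower.

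Early-response, growth and cytoskeletal genes gave single calls. Jun, an immediate early transcription factor subunit of AP-1, read -0.68, -1.04, -0.75 and -0.60 against 0.44, 0.28, 0.20 and 0.32, and rose by 1.05 ± 0.13 (SE; limma, adjusted p = 0.019). The furan samples were tightly grouped and far above the controls. It was the call among 9 immediate early genes (median 0.08). Mcm6, a subunit of the replicative helicase, read 0.22, -0.01, 0.17 and 0.05 against 0.73, 0.84, 1.12 and 1.31 and rose by 0.89 ± 0.14 (SE; limma, adjusted p = 0.044), the call among 11 replication genes (median 0.0021). None of 5 tested mitosis genes was called. Among them Birc5, survivin, differed by 1.01 (limma, adjusted p = 0.055), with 0.60 and -0.02 on its other probes. Mki67, the usual proliferation marker, did not pass the brightness filter.

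Tuba1c, an alpha-tubulin, read -0.15, -0.21, -0.22 and -0.40 against 0.53, 0.63, 0.61 and 0.69, a rise of 0.88 ± 0.12 (SE; limma, adjusted p = 0.028) with closely grouped furan samples. It was the call among 21 tubulin and actin genes, whose median was -0.03 (0.31 with median centring). Tubb2a, a beta-tubulin, read -1.54, -1.59, -1.73 and -1.59 against -1.70, -1.69, -1.77 and -1.60. The groups overlapped, and the difference was -0.07 with a 95% interval of -0.33 to 0.19 (limma, adjusted p = 0.80). Its sign turned to 0.19 with median centring. Psat1, an enzyme of serine synthesis and the call among 23 integrated stress and unfolded protein response genes (median 0.08), read 0.01, 0.23, -0.12 and 0.43 against 0.94, 1.28, 1.55 and 1.02. It was above background on no control array. The ratios differed by 1.06 ± 0.17 (SE; limma, adjusted p = 0.044), while its other probe gave 0.37. The Cy5 levels alone, where the probe's own control level was used, differed by 1.99-fold, which is no lower bound.

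Among drug and steroid oxidases 1 gene rose and 2 fell. Cyp2e1 read -0.47, -0.31, -0.45 and -0.52 with corn oil and -1.38, -1.11, -1.15 and -1.33 with furan. All furan samples were lower, and the gene fell by 0.79 ± 0.12 (SE) on the log2 scale (limma, adjusted p = 0.044). Its second probe gave -0.67. Cyp46a1, the cholesterol 24-hydroxylase known from neurons, read -0.18, -0.15, 0.08 and -0.09 against -0.93, -0.82, -1.43 and -1.06. It fell by 1.00 ± 0.14 (SE; limma, adjusted p = 0.028). Cyp3a41b, a female-predominant steroid hydroxylase with a near-identical copy in the genome, read -0.78, -0.80, -0.46 and -0.83 against 0.22, 0.82, 0.26 and 0.64 and rose by 1.18 ± 0.17 (SE; limma, adjusted p = 0.037). The furan samples split into a higher pair, 42 and 44, and a lower pair, 41 and 43, all above the controls. Over 32 tested oxidases the median was -0.15.

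Other hepatocyte functions gave no call, and their medians depended on the scaling. In the main values 18 of the 35 lists with 3 or more tested members had a median below that of all genes. With each array centred on its median all 35 medians were above 0, and 8 of those 18 stayed below the median of all genes, 0.17. The amino acid list then stood at 0.27, the oxidases at 0.21, the bile acid list at 0.21, the plasma proteins at 0.32 and the coagulation list at 0.16. Of the 17 lists above all genes, 16 stayed above. Among all tested genes 9.91% were lower and 9.36% higher at an unadjusted limma p under 0.05, the share to set beside the counts that follow. Of 36 genes of amino acid breakdown and the urea cycle none was called, 10 were lower and 2 higher at an unadjusted p under 0.05, and the median was -0.13. Hpd, which degrades tyrosine, read -0.34, -0.17, -0.48 and -0.49 against -0.74, -1.14, -0.79 and -1.19. The groups did not overlap, but the difference of -0.56 did not pass (limma, adjusted p = 0.12). Of 19 coagulation genes none was called, 5 were lower and 1 higher at an unadjusted p under 0.05, and the median was -0.23. F5, coagulation factor V, gave -0.64 (limma, adjusted p = 0.081) and -0.57 on its other probe. Lipc, hepatic lipase, read -0.28, -0.18, -0.39 and -0.73 against -0.77, -0.80, -0.97 and -1.05, without overlap (difference -0.45; limma, adjusted p = 0.13).

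Plasma and lipoprotein proteins (25 tested) had a median of -0.10, complement and acute phase genes (29) -0.06, hepatocyte markers (11) -0.08 and periportal genes (14) -0.13. Furan sample 44 stood apart in the hepatocyte markers, whose median level, set to a control mean of 0, was -0.59 there beside 0.04, -0.08 and -0.19 in samples 41 to 43. The same sample gave -0.36 for the periportal list and 0.79 for the 5 mitosis genes, the lowest and the highest of the furan group. The pericentral list (16) had a median of -0.18 and 1 call, Cyp2e1. Bile acid genes (18) had a median of -0.15. Cyp7a1, which limits the rate of bile acid production, read -0.52, -0.56, -0.28 and 1.25 against -0.48, 0.36, -0.39 and -0.14, with control sample 6 far above the rest. Its difference of -0.31 (limma, adjusted p = 0.72) turned to 0.31 without that sample. The other metabolic lists were also without a call: fatty acid synthesis (14) at -0.12, fatty acid oxidation (23) at -0.06 and cholesterol synthesis (23) at 0.18. Housekeeping lists lay near the middle, with ribosomal proteins (41) at 0.10, the proteasome (30) at 0.05 and oxidative phosphorylation (39) at 0.11. Nuclear receptors and hepatocyte factors (19) stood at 0.07, clock genes (15) at -0.06 and metallothionein and iron genes (14) at 0.06, none with a call.

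**Figure D4:**
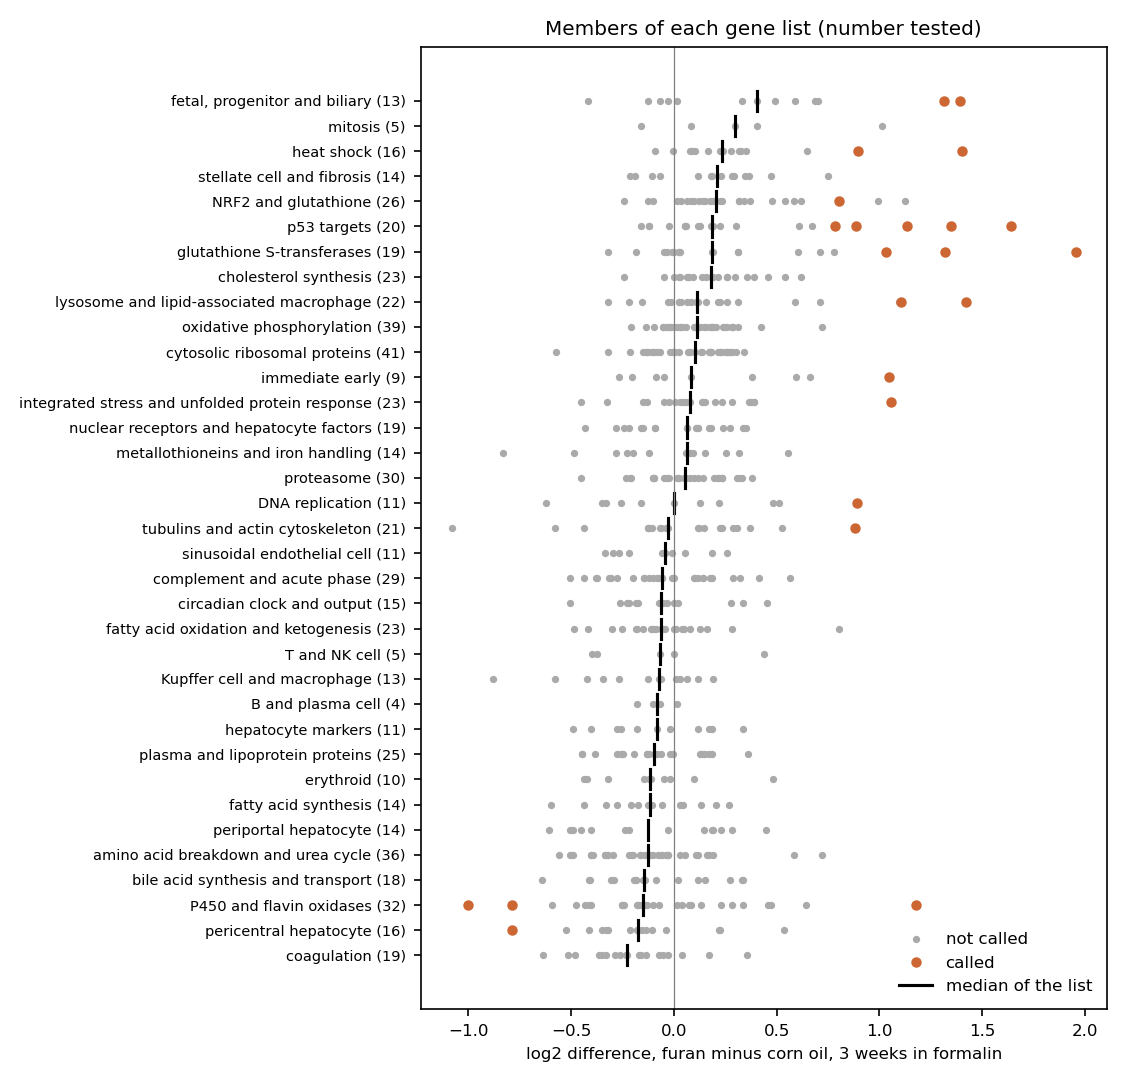
Log2 difference between furan and corn oil (x axis) for each tested member of the gene lists, one list per row with its number tested. Orange points are called genes and black bars list medians. Called members number 5 for p53 targets and 3 for glutathione S-transferases and P450 and flavin oxidases, and medians run from -0.23 for coagulation to 0.40 for the fetal, progenitor and biliary list.

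Mmp12 and Cd63, from the lysosome and lipid-associated macrophage list, and Afp and Msln, from the fetal, progenitor and biliary list, were among the largest rises. Mmp12, macrophage elastase, read -0.89, -1.11, -0.95 and -0.83 with corn oil and 0.37, 0.52, 0.70 and 0.39 with furan. The probe was not well above background on any control array and was so on all 4 furan arrays. The ratios differed by 1.42 ± 0.13 (SE), or 2.68-fold (limma, adjusted p = 0.0054). The Cy5 levels alone, where the probe's own control level was used, differed by 2.75-fold, so this value is no lower bound of the ratio. Cd63, a tetraspanin of lysosomes, read -0.07, -0.19, 0.37 and 0.47 against 1.21, 1.35, 1.44 and 1.37 and rose by 1.10 ± 0.16 (SE; limma, adjusted p = 0.037). Trem2, a lipid receptor of macrophages, read 0.05, 0.46, 0.54 and 0.29 against 1.00, 1.74, 1.36 and 1.71, without overlap, but did not pass (difference 1.10; limma, adjusted p = 0.054). Of 22 genes on the lysosome and lipid-associated macrophage list 2 rose, none fell and the median was 0.11. The median level of the list, set to a control mean of 0, was 0.08 to 0.36 in the furan samples and -0.15 to 0.19 in the controls, which overlap.

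Resident cell markers showed no such calls. Of 13 Kupffer cell and macrophage genes tested (17 on the array) none passed, and the median was -0.07. Their median level was -0.27 to 0.24 with furan and -0.11 to 0.17 with corn oil. Of the 13, 8 were below 0, the lowest at -0.88, and 2 were lower and none higher at an unadjusted limma p under 0.05. Over all tested genes 9.91% were lower and 9.36% higher at that threshold. Clec4f, a Kupffer cell lectin, gave -0.27 (limma, adjusted p = 0.26). Stellate cell and fibrosis genes (14 of 25 tested) had a median of 0.21 and no call, led by Col4a2 at 0.47 and Col1a1 at 0.75, 2 collagens (limma, adjusted p = 0.17 and 0.22). Few immune markers were bright enough: 2 of 11 for neutrophils (median -0.24), 5 of 13 for T and NK cells (median -0.07) and 4 of 9 for B and plasma cells (median -0.08). Sinusoidal endothelial markers (11 tested) had a median of -0.04 and erythroid genes (10 tested) -0.12. No member of these lists was called. The part of changing cell numbers in the macrophage rises was not tested.

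Afp, the fetal counterpart of albumin, read -0.15, -0.09, -0.13 and -0.25 with corn oil and 0.99, 1.27, 1.40 and 1.23 with furan. The controls were tightly grouped, and Afp rose by 1.39 ± 0.13 (SE), or 2.62-fold (limma, adjusted p = 0.0057). Msln, mesothelin, a surface protein of mesothelial cells, read 0.07, -0.38, 0.66 and 0.21 against 1.77, 1.54, 1.35 and 1.56. It rose by 1.32 ± 0.18 (SE; limma, adjusted p = 0.027), with 1 of 4 control arrays above background. They were the calls among 13 tested members of the fetal, progenitor and biliary list, whose median of 0.40 was the highest of the 35 lists. Of the 13, 3 had entered through the furan group alone, Msln among them, which can lift the median. Over the alternative settings the median ran from 0.16 to 0.69. In the main values 9 members were above 0 and 4 below, the lowest at -0.42. Chka, choline kinase alpha, read -0.25, -0.27, -0.11 and 0.03 against 0.94, 1.08, 0.86 and 0.70 and rose by 1.01 ± 0.13 (SE; limma, adjusted p = 0.027). Its other probes gave 0.83 and 0.15.

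The remaining named falls were in genes with little in common by function. 2810410L24Rik read 1.33, 1.27, 0.85 and 1.59 with corn oil and 0.02, 0.25, -0.14 and 0.05 with furan, a fall of 1.20 ± 0.18 on the log2 scale (SE; limma, adjusted p = 0.040). Hectd2, a ubiquitin ligase, read 0.80, 0.64, 0.10 and 0.78 against -0.50, -0.66, -0.60 and -0.43 and fell by 1.08 ± 0.16 (SE; limma, adjusted p = 0.037). Control sample 4 was the lowest control in both, still above all furan samples. Slc36a3, of an amino acid transporter family, read 1.21, 1.45, 1.91 and 1.63 against 0.78, 0.83, -0.11 and 0.48 and fell by 1.13 ± 0.18 (SE; limma, adjusted p = 0.046), with 2 of 4 furan arrays above background. Olfr482 read 0.96, 1.03, 1.32 and 0.72 against -0.02, 0.20, -0.18 and -0.05. It was above background on no furan array and was at least 1.51-fold lower with furan (limma, adjusted p = 0.023).

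Ndn, the imprinted growth suppressor necdin, fell by 1.00 ± 0.16 (SE; limma, adjusted p = 0.047), from 1.45 to 2.16 on the control arrays to 0.68 to 0.90 with furan. Spint1, an inhibitor of the hepatocyte growth factor activator, fell by 0.84 ± 0.13 (SE; limma, adjusted p = 0.043), and Ssxb10 fell by 0.75 ± 0.12 (SE; limma, adjusted p = 0.046). Their control arrays lay between 1.25 and 1.63 and their furan samples between 0.39 and 0.88. Of the 66 calls, 23 had no gene symbol (10 rises, 13 falls). Probes of large intergenic RNA regions made up 9 of these, 4 of them higher and 5 lower. One of the lower regions (mm9 chr8:10886200-10905925, R probe) read 0.67, 0.83, 0.47 and 0.64 against -0.41, -0.12, -0.60 and -0.26 and fell by 0.97 ± 0.15 (SE; limma, adjusted p = 0.043). Its other probes gave -0.61 and -0.74. Where a called gene had a second bright probe, its sign matched in 12 of 14. The share of matching signs over all genes was not computed. As another measure, the differences of the 2 brightest probes correlated at r = 0.30 over 2906 genes.

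The rises and the falls stood differently beside the 18 h livers. These have their own arrays but share the sample numbers and the reference pool. They may come from the same mice, which the labels do not say. The 18 h RNA came from 1 section of 10 μm per liver and the 3-week RNA from 2. Time in formalin and tissue input therefore cannot be told apart. In the fit of the 18 h samples over the same genes 8983 were called (55.6%), 3779 higher (23.4%) and 5204 lower (32.2%). Detection differed at 18 h too, with 51.9% to 55.2% of probes above background with furan and 44.3% to 50.1% with corn oil. Whether that moved the 18 h calls was not tested. Of the 44 rises at 3 weeks, 39 also rose at 18 h, none fell and 5 were not called. These 39 are 88.6% of the 3-week rises and 1.03% of the 18 h rises. Of the 22 falls 6 fell at 18 h, 1 rose and 15 were not called, so that the shared falls are 27.3% of the 3-week falls and 0.115% of the 18 h falls. The median difference of the rises was 1.02 at 3 weeks and 0.92 at 18 h, while that of the falls was -0.98 at 3 weeks and 0.0067 at 18 h. Some of these falls, such as Slc36a3, had probes above background on no 18 h array, where a value near 0 cannot show an absent effect. Others, such as Spint1 and Ndn, had probes above background on all 18 h arrays. They gave -0.06 ± 0.11 and 0.19 ± 0.34 (SE) there.

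**Figure D5:**
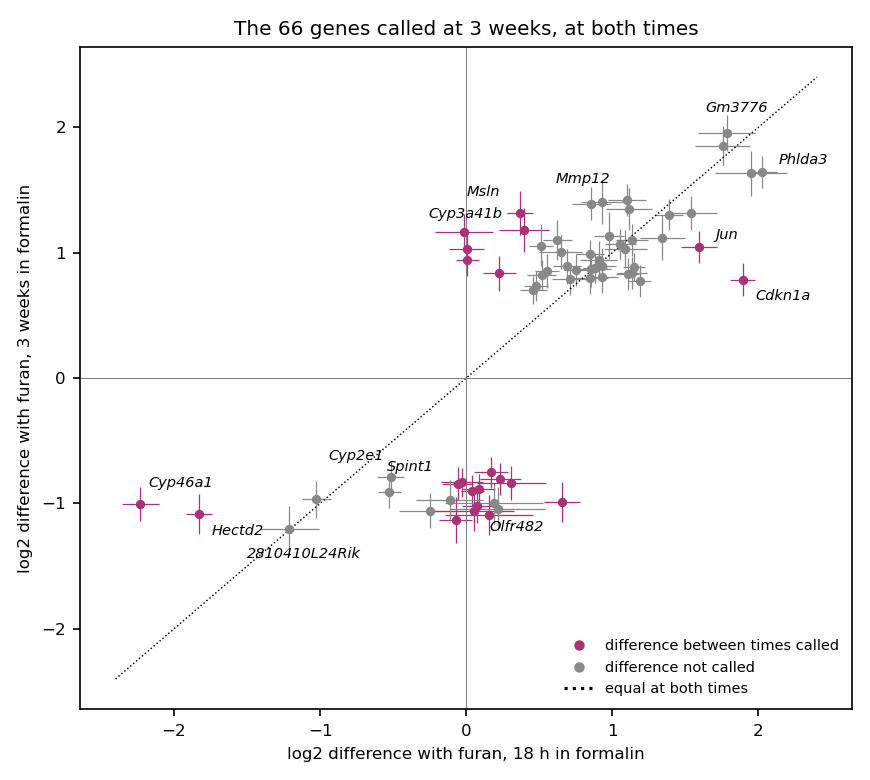
Log2 difference with furan at 18 h (x axis) and 3 weeks (y axis) for the 66 genes called at 3 weeks, with standard errors as bars. Purple marks the 22 genes whose difference between the times was called. Most falls at 3 weeks lie near 0 at 18 h, some of them with probes not above background at 18 h.

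The times, which also differ in sections per liver, gave a different furan effect in 2781 genes (17.2%; limma interaction, adjusted p under 0.05), 22 of them among the 66. Of those 22, 8 were rises, 6 of them larger at 3 weeks, and 14 were falls, 12 of them further below 0 at 3 weeks. Because the 66 genes were chosen by their 3-week effects, that lean is partly fixed by the choice. The p53 target Cdkn1a rose by 1.89 at 18 h, and its ratio difference was lower by 1.11 at 3 weeks (limma interaction, adjusted p = 0.00058). Its probe was above background on all control arrays at 18 h and on none at 3 weeks. The smaller ratio at 3 weeks therefore cannot show a smaller effect. Mdm2 rose by 0.85 at 18 h, with a difference of -0.66 (limma interaction, adjusted p = 0.0033), and Gclc by 0.88, with a difference of -0.65 (adjusted p = 0.011). Phlda3 (2.02 at 18 h) and Gm3776 (1.78 at 18 h) showed no called difference (limma interaction, adjusted p = 0.10 and 0.68). Jun rose by 1.59 at 18 h and its effect was lower by 0.55 at 3 weeks (limma interaction, adjusted p = 0.040).

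The largest difference belonged to Tubb2a, which rose by 2.14 at 18 h (limma, adjusted p = 1.0e-05), with a difference of -2.21 (limma interaction, adjusted p = 4.7e-06). Its difference at 3 weeks was -0.07, 0.19 with median centring. Urad, an enzyme of urate breakdown, fell by 1.35 at 18 h, read 0.33 at 3 weeks (limma, adjusted p = 0.30) and differed by 1.68 (limma interaction, adjusted p = 0.00077). Hpd and Lipc fell by 1.62 and 1.49 at 18 h, and their effects differed by 1.06 and 1.05 (limma interaction, adjusted p = 0.0025 and 0.0011). Cyp46a1 fell by 2.23 at 18 h, with a difference of 1.23 (limma interaction, adjusted p = 0.0010), and Hectd2 fell by 1.83, with a difference of 0.75 (adjusted p = 0.011). In the other direction Msln rose by 0.37 at 18 h and by more at 3 weeks (difference 0.95; limma interaction, adjusted p = 0.0049). Cyp3a41b gave 0.39 at 18 h (limma, adjusted p = 0.073) and a difference of 0.78 (limma interaction, adjusted p = 0.048). Cyp2e1 fell at both times, by 0.52 at 18 h, with no called difference (limma interaction, adjusted p = 0.20).

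5 more genes with large differences between the times shared high levels in control sample 2 at 3 weeks. Shc4, a signalling adaptor, read 2.45, 2.42, 1.34 and 1.08 with corn oil and 1.28, 0.77, 0.36 and 0.12 with furan. Control sample 2 was the highest of all, and samples 41 and 44 were the highest and lowest of the furan group. The difference from 18 h was -1.72 (limma interaction, adjusted p = 0.0081), but the 3-week difference of -0.98 did not pass (limma, adjusted p = 0.14). Impg1, St6galnac1 and Rgs20 gave 3-week differences of -0.99, -0.94 and -0.87, and none of these or of Cabp5, a calcium-binding protein of the retina, was called. Without control sample 2 the 3-week differences of Shc4, Cabp5, Impg1, St6galnac1 and Rgs20 were -0.57, -0.60, -0.65, -0.58 and -0.53. The second probe of St6galnac1 gave -0.02.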

How the data were processed

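Liver RNA was hybridised to Agilent 2-colour arrays that the authors read with Feature Extraction 11.0.1.1, per the file headers. In the deposited scanner files each spot has an intensity (median signal and local background, not normalized) and Agilent's log ratio in log10 units. The authors also deposited a table of log2 ratios to the reference, normalized by a method not given in the sources used here. Its scale and direction were settled against the scanner values, and its column medians at 3 weeks ran from -0.0092 to -0.0013. Background was corrected by normexp (offset 50), ratios were normalized by loess within arrays, 234 to 304 flagged spots per array were left out and repeated spots were averaged.

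Probes were kept if well above background on 3 or more arrays of either 3-week group (20256 probes), and a gene took its brightest kept probe. Of 55681 probes, 27235 matched a RefSeq symbol by accession. limma 3.58.1 in R 4.3.3 fitted furan against corn oil with slide as a term (arrays 2.1 and 2.2 averaged), two-sided, with Benjamini-Hochberg adjustment over 16161 genes. The difference between times used all 15 samples, and p-values measure the spread between these samples. The number of arrays limits precision. 3 tested genes lacked a value in 1 sample, none of them called. The fits were run on simulated data with independent normal noise for each gene. That noise held no slide effect, no shared sample effect and no floor for dim probes. It cannot show how the fits handle these. Promoter alignments used Biopython 1.88 and figures matplotlib 3.10.9.

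The comparison, the gene lists and the rule for named genes were chosen with earlier results of these data known. The rule named up to 15 rises and 15 falls by size among called genes without overlap, up to 4 members of each list by p, 15 genes whatever their values and up to 8 genes by the difference between the times. Of these, members without a call are named in part. Gsta1 was not matched by symbol. 2 called or named genes are not reported here. Alternatives varied background, normalization, filter, probe choice, slide, arrays 2.1 and 2.2, variance model, weights, detection and each sample.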

Additional observations from a re-analysis of the deposited data

Results flagged for a closer look

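The furan effect at 3 weeks minus that at 18 h passed the interaction test for the genes that follow. It was below 0 for Tubb2a (-2.21), Impg1 (-1.79), Shc4 (-1.72), Rgs20 (-1.69), St6galnac1 (-1.65), Cabp5 (-1.63), Cdkn1a (-1.11), Olfr482 (-1.10), Slc36a3 (-1.06), Ssxb10 (-0.92), Spint1 (-0.78) and Jun (-0.55) on the log2 scale. It was above 0 for Urad (1.68), Cyp46a1 (1.23), Msln (0.95), Cyp3a41b (0.78) and Hectd2 (0.75). Olfr482, Slc36a3, Ssxb10 and Spint1 were called falls at 3 weeks and lay between -0.07 and 0.17 at 18 h. The Spint1 probe was above background on all 18 h arrays and the Slc36a3 probe on none. Ssxb10 was so on 0 control and 2 furan arrays, and Olfr482 on 1 and 2. For these 3 dim probes an 18 h value near 0 cannot show an absent effect. The Cdkn1a probe was above background on no control array at 3 weeks, so its smaller ratio there cannot show a smaller effect. Within the furan group at 3 weeks, sample 41 stood apart in Tnfrsf10b at 0.58 beside 1.25, 1.25 and 1.26, a gap of 0.980 of the group's range. The cut-off used (Dixon's 95% critical value for groups of 4) is passed by chance in about 1 in 20 groups, and 45 genes were examined. The causes were not tested.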

How the results depend on the processing

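The count of called genes, 66 with the main settings, was 460 without background subtraction, 11 with Agilent's log ratio, 2524 with median centring, 101 after scaling between arrays and 293 in the authors' deposited value table. It was 36 with a filter over any of the 4 groups, 29 with no filter, 114 without the slide term, 101 with array weights, and 732 with arrays 2.1 and 2.2 as 2 samples. Slide 1 alone gave 0 (1477 at an unadjusted limma p under 0.05), slide 2 alone 672, and the detection covariate 0 (1259 at an unadjusted p under 0.05). Leaving out a sample gave 0 (without control sample 6; 2420 at an unadjusted p under 0.05) to 1089. A filter on both groups gave 53, the mean of all probes 48 and a trended robust prior 73. Signs turned for Tubb2a (0.19 with median centring, 0.030 with the covariate), for Cdkn1a (-0.49 with the filter on both groups, which takes its other probe) and for Cyp7a1 (0.34 on slide 1 alone, 0.27 with the covariate, -0.65 to 0.31 when samples were left out). Other causes were not tested. Over the named genes, 719 values kept direction and side of the threshold, 281 lost their call, 22 gained one and 6 turned sign. Of the list medians, 730 moved by less than 1 SD between samples and 75 by more. The count of genes whose effect differed between the times (2781) stayed between 2008 and 3250, but its split turned from 1740 higher and 1041 lower to 536 and 1472 with median centring and to 1469 and 1781 in the authors' table. To look for pairing, each gene's group mean was subtracted and the remaining deviations were correlated, not the profiles themselves. Deviations of same-numbered samples of the 2 times correlated at -0.014 to 0.27, over 0.1 in 5 of 7 pairs. Of the 7, 5 correlated best with their own number, a hint of pairing in the data. Not every pair passed 0.1 and the labels do not pair the samples, so the fit without the block was kept. With the sample number as a replicate block 2265 genes were called. The difference in detected probes ran from 0.687 (slide 1) to 6.77 points (slide 2). Signals of about 2.03 to 2.44 times background limit what dim probes can show.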

Other observations

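A further 13 genes with a symbol were called outside the naming rule, all of them rises of 0.70 to 0.94 on the log2 scale (limma, adjusted p from 0.027 to 0.047), and are named here after their values were seen. They include Tnfrsf12a, the receptor for TWEAK, at 0.87, the linker histone H1f2 at 0.84, the bromodomain gene Brd2 at 0.77 (0.42 on its other probe) and the carboxylesterase Ces2e at 0.74. Slc22a27, an organic anion transporter, gave 0.94, Cyb561 0.79, Dtx2 0.82, Fbxo2 0.83 and Snrpa1 0.70. Cers6, a ceramide synthase, Slpi, a protease inhibitor, and Mical2, which oxidises actin, were above background on no control array. Cers6 was at least 1.66-fold higher. For Slpi and Mical2 the Cy5 levels, with the probe's own control level, differed by 1.73-fold and 1.67-fold, which are no lower bounds. Of the 13, Cers6 and Fbxo2 were not called at 18 h (0.0078 and 0.23; limma, adjusted p = 0.94 and 0.11).

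In the authors' deposited value table the columns labelled 2.1 and 2.2 each matched the other's scanner file better than its own, at r = 0.97 against 0.86 for both. The other 6 columns of the 3-week groups matched their own arrays best, at 0.96 to 0.97. Because both arrays carry sample number 2 and were averaged, the mean of that sample is the same under either labelling.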
